A study of Homo sapiens with 14 samples.

Results

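ZC3H18 (Z18) is a zinc-finger protein that joins the nuclear cap-binding complex, through ARS2, to the adaptors that bring transcripts to the RNA exosome. These adaptors are NEXT, which serves short and non-polyadenylated nuclear RNA, and PAXT, which serves polyadenylated nuclear RNA. Endogenous retroviruses (ERVs) are remnants of ancient retroviral insertions, flanked by long terminal repeats (LTRs) that can start and end transcripts, and melanoma cells often transcribe some of them. Other transposable elements (TEs) are LINEs, SINEs and DNA transposons.

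The comparison was between 2 kinds of single-cell clone of A375, a human melanoma cell line: 3 trunc/+ clones, which carry a truncating mutation of Z18 on 1 allele, and 3 -/+ clones, which carry a loss-of-function mutation on 1 allele. The members were taken from the genotype label alone, and they make up 6 of the 14 samples of the series and 6 of its 8 clones. It asks whether a truncated Z18 allele gives other RNA levels than loss of an allele does. Each clone came from cells transiently transfected with CRISPR reagents, selected with antibiotic and cloned by limiting dilution, and each is a separate line with its own history. The trunc/+ clones were made with 1 guide RNA and a single-stranded repair template, and 1 of them took the template while the other two carry other truncating patient mutations. The -/+ clones came from either of 2 guide RNAs, and were chosen for loss of an allele by Sanger sequencing and for lower Z18 protein. The 2 WT clones, which received Cas9 vector with no guide, are given as reference levels and shared the estimate of spread. RNA was polyA-selected, so RNA with no tail is largely unseen. A bulk sample of a clone cannot tell fewer cells that express a gene from less RNA per cell.

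Z18 RNA itself was measured in every clone first. It stood at 16.2, 17.1 and 16.1 FPKM (fragments per kilobase of transcript, scaled to sequencing depth) in the -/+ clones and at 14.3, 14 and 8.70 FPKM in the trunc/+ clones, against 23.5 and 22.0 FPKM in WT. Both mutant groups lay below WT, and every trunc/+ clone lay below every -/+ clone. The difference between them was -0.42 ± 0.19 (SE) on the log2(FPKM + 1) scale, which did not pass the test (limma adjusted p = 0.80), and it was -0.21 without trunc/+ clone 3. RNA level does not check for a truncated protein, since a transcript with a premature stop can stay. The study reports that it detected the truncated protein in its trunc/+ clones by immunoblot.

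Depth differed with genotype. The -/+ libraries held 24837091, 18742399 and 23885139 aligned fragments and the trunc/+ libraries 33018360, 27853294 and 28114254, with no overlap. Depth and genotype therefore cannot be told apart in raw counts, and TE sums are given as counts per 1000000 aligned fragments (CPM). Counts of single TE copies are raw where no CPM is given, while the main tests took aligned fragments as library size. TE reads were 7.24% to 8.06% of aligned fragments in the 6 clones. Lists of markers of other cell types were mixed, with defining genes at or near 0 and others expressed in all clones. Of 10 haematopoietic markers 4 were tested and 0 separated the genotypes: PTPRC and CD3E were at 0 to 0.034 FPKM, while the class II genes CD74 and HLA-DRA were at 203 to 1436 and 44.4 to 517 FPKM, CD68 at 13.7 to 70.3 FPKM and LYZ at 2.52 to 5.07 FPKM. Of 10 fibroblast markers 3 were tested and 0 separated, with LUM at 0.575 to 7.78 FPKM and COL1A2 and THY1 at 0 in all 6 clones. Of 10 epithelial markers 5 were tested, with EPCAM at 0.039 to 0.346 FPKM but KRT18 at 170 to 589 FPKM. Of these 5, only CLDN4 was higher in every trunc/+ clone (20%, beside 4.79% of all tested genes) and 0 were lower. CLDN4 was at 6.82 to 9.02 against 1.73 to 4.37 FPKM, with WT at 8.62 and 4.29. The other 4 tested epithelial markers had negative differences, and the list median was -0.17. The melanoma label rested on SOX10 at 47.8 to 212 FPKM, since the pigment genes TYR and MLANA were at 0 in every clone, and PMEL was at 0.401 FPKM or less in the 6.

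An LTR sequence is shown because it carries part of the ERV result below: the opening 300 bases, 5′ to 3′ on the transcribed plus strand of hg38, of the LTR3B element that follows the HERVK3-int copy, at chr16:35524056-35524355. Capitals mark matches on either strand to TATAAA (core promoter box) or AATAAA (polyadenylation signal).
LTR3B: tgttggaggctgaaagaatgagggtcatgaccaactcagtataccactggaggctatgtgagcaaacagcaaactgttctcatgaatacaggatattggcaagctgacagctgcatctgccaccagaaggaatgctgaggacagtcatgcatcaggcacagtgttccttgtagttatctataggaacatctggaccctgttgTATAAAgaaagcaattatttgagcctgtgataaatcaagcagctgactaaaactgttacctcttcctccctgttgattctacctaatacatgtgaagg
This stretch held 1 match, TATAAA from base 203. Over the first 300 bases of the 2564 tested LTR copies of at least that length, 22.0% held TATAAA and 24.5% held AATAAA on either strand.

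The clones did not sort by genotype on the main axis of gene expression. The first principal component of log2(FPKM + 1) over the tested genes held 40.8% of the variance and placed -/+ clone 1 at 0.34, trunc/+ clone 3 at 0.29 and WT clone 1 at 0.23, against -0.33 for -/+ clone 3 and -0.35 for trunc/+ clone 2. The second, with 17.0%, put all trunc/+ clones at -0.30 to -0.09 and all -/+ clones at 0.01 to 0.14. The nearest clone to -/+ clone 3 was trunc/+ clone 2, the nearest to trunc/+ clone 3 was -/+ clone 1, and the nearest to -/+ clone 1 was WT clone 1. The median absolute difference between 2 clones over genes averaged 0.269 log2 units over the 6 pairs within a genotype and 0.276 over the 9 pairs between genotypes (difference 0.01, one-sided exact permutation p = 0.3, where 0.1 is the smallest 3 against 3 clones allow).

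**Figure D1:**
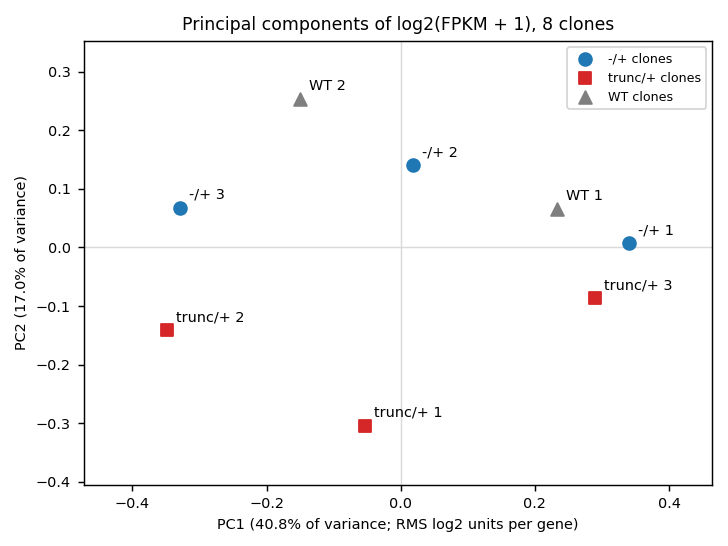
First and second principal components of log2(FPKM + 1) over the tested genes, 1 point per clone, with blue circles for -/+, red squares for trunc/+ and grey triangles for WT. PC1 mixes the genotypes, with -/+ clone 3 beside trunc/+ clone 2 at the left, while on PC2 the 3 trunc/+ clones lie below 0 and the 3 -/+ clones above.

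Some genes differed widely inside each genotype. Genes were ranked by that spread, not by their part in the first component. S100B, a Schwann-cell and melanocyte calcium-binding protein, was at 77.9, 27.1 and 2.43 FPKM in the -/+ clones and at 24.4, 0.474 and 85.4 FPKM in the trunc/+ clones. RXRG, a retinoid receptor, went from 46.9 FPKM in -/+ clone 1 to 0.021 FPKM in -/+ clone 3, and from 16 FPKM in trunc/+ clone 3 to 0 in trunc/+ clone 2. In the opposite sense, the long non-coding RNA UCA1 was at 0.168, 14.4 and 53.9 FPKM in the -/+ clones and at 38.7, 134 and 0.185 FPKM in the trunc/+ clones. Clone 1 of -/+ and clone 3 of trunc/+ shared the S100B-high, UCA1-low values, and clone 3 of -/+ and clone 2 of trunc/+ the reverse. The surface receptor ERBB3 followed S100B, at 79.3, 52.6 and 11.7 FPKM in the -/+ clones and at 60.6, 10.0 and 80.0 FPKM in the trunc/+ clones. The SPANX genes, a family of near-identical X-linked cancer-testis genes whose reads may be split among copies, were also among the 20 genes of widest spread, with SPANXA2 at 0.281 to 547 FPKM in the -/+ clones. The median SD of a gene within a genotype was 0.23 log2 units in -/+ and 0.24 in trunc/+.

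No gene passed the test between trunc/+ and -/+. Of 12904 genes with at least 1 FPKM in 2 or more of the 8 clones, 0 (0%) had a limma adjusted p under 0.05, and the smallest adjusted p was 0.785. At an unadjusted p under 0.05 there were 402 genes higher in trunc/+ (3.12%) and 408 lower (3.16%), 810 in all, against 400 without -/+ clone 2. All trunc/+ clones lay above all -/+ clones for 618 genes (4.79%) and below them for 832 (6.45%). The median log2 difference over genes was 0.00 and the median SE 0.20. WT lay nearer to -/+ than to trunc/+ for 71.8% of those 618 genes, beside 59.7% of all 6428 tested genes with a positive difference, and for 80.3% of those 832, beside 67.6% of all 6475 with a negative one. The genes named below were taken by a fixed rule, by smallest unadjusted p among genes whose groups did not overlap, so their separation comes from the choice, and none passed the adjusted test.

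The 10 genes higher in trunc/+ by this rule included CTSA, HES1, HES4 and ENO2. CTSA, a lysosomal carboxypeptidase, was at 61.7, 51.1 and 53.2 FPKM in the -/+ clones and at 90.2, 90.2 and 88.9 FPKM in the trunc/+ clones, against 42.3 and 39.5 in WT. The trunc/+ clones were tight and all above the others, with a log2 difference of 0.69 ± 0.11 (SE). HES1, a transcriptional repressor that Notch signalling switches on, was at 36.1, 15.2 and 12.8 FPKM in -/+ and at 55.4, 140 and 207 FPKM in trunc/+, with a log2 difference of 2.55 ± 0.54. The WT clones, at 31.7 and 52.3 FPKM, reached close to the lowest trunc/+ clone. Its relative HES4 was at 0.674, 1.90 and 0.927 FPKM against 4.09, 4.63 and 4.86 FPKM. ENO2, the neuronal enolase of glycolysis, was at 26.2, 18.2 and 16.7 FPKM against 51.1, 37.3 and 39.7 FPKM. The secreted protein gene C1QTNF1 was at 1.66 to 2.62 FPKM against 4.98 to 5.61 FPKM, and the histone gene H2BC21 at 1.23 to 2.05 FPKM against 3.34 to 6.25 FPKM. NUDT14, a nucleotide-sugar hydrolase, was at 1.07 to 2.64 FPKM against 4.12 to 6.31 FPKM. The remaining members were non-coding or antisense genes: SLCO4A1-AS1 at 3.18 to 10.7 FPKM against 19.2 to 52.1 FPKM, MMP24OS at 13.4 to 15.8 against 22.6 to 29.7, and LOC100506076 at 0 to 0.038 against 1.17 to 2.00. The libraries were strand-specific, but the strand setting of the gene quantification was not given in the sources used here. Whether the gene values keep reads of an antisense gene and its partner apart is therefore not known.

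The 10 genes lower in trunc/+ by this rule included PFAS, MAGOHB and FBL. PFAS, an enzyme of purine synthesis, was at 16.4, 16.7 and 16.4 FPKM in the -/+ clones and at 10.6, 11.1 and 10.8 FPKM in the trunc/+ clones, with WT at 20.1 and 20.4. Each genotype was tight, and the log2 difference was -0.56 ± 0.10 (SE). MAGOHB, a core protein of the exon junction complex that marks spliced RNA, was at 14, 16.8 and 17.1 FPKM against 9.17, 9.57 and 9.29 FPKM (log2 difference -0.71 ± 0.13). FBL, the methyltransferase of box C/D snoRNPs, was at 209 to 235 FPKM in -/+ and at 147 to 165 FPKM in trunc/+, with WT at 267 and 270. RPIA of the pentose phosphate pathway was at 19.6 to 21.1 against 11.5 to 15.5 FPKM, and the mitotic kinesin KIF20A at 47.4 to 53.3 against 29.0 to 37.4 FPKM. NNMT, which methylates nicotinamide, had the larger spread, with 16.5, 10.4 and 11.7 FPKM against 1.5, 2.74 and 5.79 FPKM. COCH, a secreted matrix protein, was at 5.78, 5.6 and 3.84 FPKM against 1.74, 0.308 and 0 FPKM, with WT at 7.42 and 7.59. The others were the sorting nexin SNX19 at 4.75 to 6.19 against 2.54 to 3.23 FPKM, the nucleosome-binding HMGN2 at 250 to 341 against 174 to 211 FPKM, and the small nucleolar RNA gene SNORD23 at 3.51 to 3.80 against 1.03 to 1.68 FPKM. For SNORD23 the WT clones, at 1.27 and 1.44 FPKM, lay with trunc/+. The libraries were polyA-selected, and whether SNORD23 reads come from the small RNA itself was not tested.

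**Figure D2:**
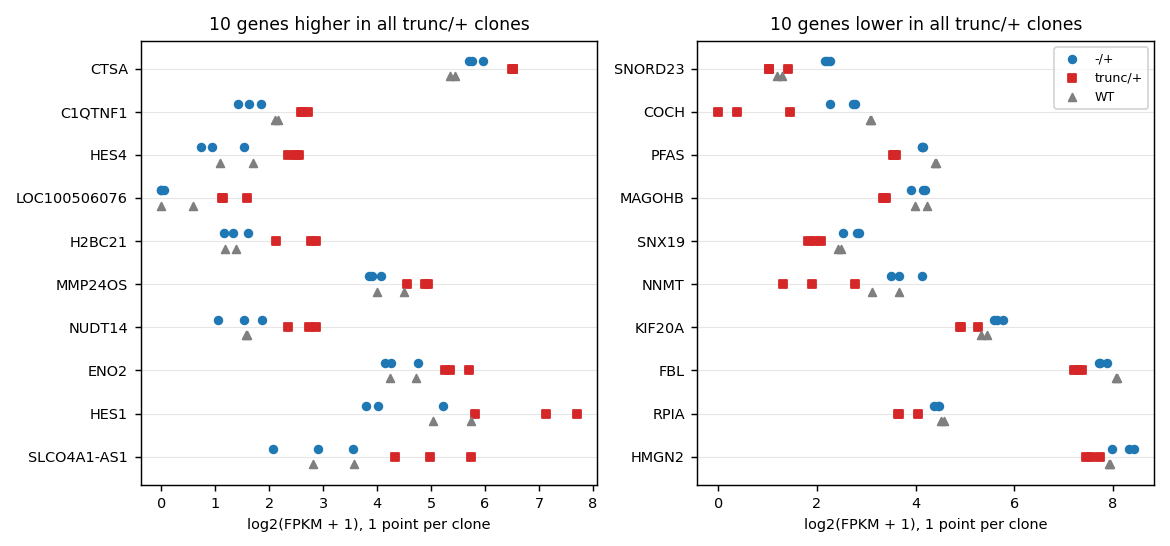
Log2(FPKM + 1) of the 10 genes higher and the 10 lower in every trunc/+ clone with the smallest unadjusted p, 1 point per clone, blue circles for -/+, red squares for trunc/+ and grey triangles for WT. The groups do not overlap by the way the genes were chosen, and WT lies nearer to -/+ for most of them, with SNORD23 as an exception.

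Cell-cycle genes were the list with the largest share of separated members. Of 35 tested, 17 were lower in every trunc/+ clone (48.6%, beside 6.45% of all genes) and 0 were higher, 12 had an unadjusted p under 0.05, and 0 passed the adjusted test. The median log2 difference was -0.33, and -0.37 to -0.25 with each clone left out. MKI67, the proliferation antigen, was at 43.1, 37.7 and 34.6 FPKM in the -/+ clones and at 27.8, 22.6 and 26.4 FPKM in the trunc/+ clones, with WT at 31.7 and 31.2. The WT clones fell between the groups. MCM6 and MCM7, subunits of the replicative helicase, were at 36.5 to 37.3 against 26.2 to 28.9 FPKM and at 168 to 186 against 129 to 138 FPKM. RRM2, the ribonucleotide reductase subunit, was at 133 to 141 against 90.5 to 113 FPKM. No cell counts or cycle phases stand beside these values.

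The lists of the machinery to which Z18 belongs had small and mostly negative differences. Of 15 RNA exosome genes, 4 were lower in every trunc/+ clone (26.7%, beside 6.45% of all genes) and 0 higher, with a list median of -0.17. EXOSC5, a core ring subunit, was at 66.2, 61.8 and 55.9 FPKM against 44, 48.3 and 37.5 FPKM, a log2 difference of -0.50 ± 0.13 (adjusted p = 0.785). EXOSC3 and EXOSC2, cap subunits of the ring, were at 43.2 to 58.4 against 34.9 to 42.8 FPKM and at 40.0 to 44.3 against 26.9 to 38.2 FPKM. Of 10 NEXT and PAXT adaptor genes 2 were lower (20%), the PAXT-linked RBM26 at 15.5 to 18.2 against 10.7 to 14.2 FPKM and RBM27 at 12.7 to 14.3 against 10.4 to 12.2 FPKM, and MTREX, the helicase shared by both adaptors, overlapped at 45.7 to 54.8 against 38.0 to 46.9 FPKM. Of 12 cap-binding partners 2 were lower (16.7%, beside 6.45%), 1 of them Z18 itself, and 11 had a negative difference. Of 18 nonsense-mediated decay factors 4 were lower (22.2%, beside 6.45%) and 17 had a negative difference, with a median of -0.18. Among 18 transcripts that this decay pathway is known to hold down, 2 were higher (11.1%, beside 4.79% of all genes), CHAC1 at 1.84 to 2.54 against 2.74 to 4.40 FPKM and UPP1 at 10.4 to 11.4 against 12.8 to 15.5 FPKM, and the median was 0.09, or -0.04 without trunc/+ clone 3.

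Zinc-finger genes of the ZNF series, many of which code for repressors of TEs, had mostly negative differences. Of 396 tested, 62 were lower in every trunc/+ clone (15.7%, beside 6.45%) and 6 were higher (1.52%, beside 4.79%), with a median of -0.13. ZNF141 was at 2.29, 2.77 and 2.20 FPKM against 0.839, 1.25 and 1.04 FPKM, and ZNF587B at 4.71 to 6.18 against 2.44 to 3.55 FPKM. ZNF genes share close sequence, so reads can be split among them. Of 28 other TE-silencing genes 3 were lower (10.7%, beside 6.45%), with a list median of -0.09. Among the lower ones were DNMT1, the maintenance DNA methyltransferase, at 59.8 to 77 against 42.4 to 55.6 FPKM, and SUV39H2 at 9.46 to 10.2 against 6.16 to 8.62 FPKM.

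Signalling lists had mostly positive differences, with wide spread between clones. Of 20 immediate early and AP-1 genes 19 had a positive difference and the median was 0.73, from 0.45 to 0.95 with each clone left out. Yet only JUND was separated (5%, beside 4.79% of all genes). It was at 47.0, 31.0 and 39.7 FPKM in -/+ and at 55.2, 77.6 and 83.7 FPKM in trunc/+. FOS overlapped, at 34.3, 4.07 and 4.53 against 30.8, 43.7 and 125 FPKM. Of 67 NF-kB and TNF targets 5 were higher (7.46%, beside 4.79% of all genes) and 1 lower, with a median of 0.32, or 0.12 without trunc/+ clone 1 and 0.17 without -/+ clone 1. SAT1, a polyamine-catabolic enzyme, was at 98.1, 48.2 and 37.2 against 471, 108 and 397 FPKM, and DUSP1, a MAP kinase phosphatase, at 4.66 to 7.49 against 9.99 to 19.7 FPKM. Of 20 MAPK output genes 2 were higher (10%, beside 4.79%), DUSP5 at 15.7 to 16.7 against 20.6 to 40.3 FPKM and EPHA4 at 1.72 to 3.23 against 3.97 to 4.79 FPKM. Of 26 hypoxia and glycolysis genes 6 were higher (23.1%, beside 4.79%), ENO2 and BNIP3L among them, and the median was 0.27, or 0.46 without -/+ clone 1 and 0.18 without trunc/+ clone 3.

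Few interferon-response genes separated the genotypes. Of 48 tested, 2 were higher (4.17%, beside 4.79% of all genes) and 0 lower, and the median of 0.19 became -0.07 without trunc/+ clone 2. IRF9, a subunit of the interferon-activated transcription factor, was at 3.78, 4.19 and 3.28 FPKM against 9.33, 12.4 and 4.81 FPKM, and ISG15 at 4.54, 7.83 and 8.89 against 10.8, 22.8 and 9.26 FPKM. Trunc/+ clone 2 was the highest for both. OAS2 overlapped, at 3.23, 2.23 and 3.10 against 5.37, 11.6 and 2.56 FPKM. Of 17 antigen-presentation genes only B2M, the light chain of class I molecules, was separated (5.88%, beside 4.79%). It was at 618, 612 and 639 against 1244, 885 and 702 FPKM. Of 18 nucleic acid sensors 2 were higher (11.1%, beside 4.79%), TICAM1 and DHX58. The 1 that was lower (5.56%, beside 6.45%) was RNASEH2B.

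The shares of the remaining lists stand beside 4.79% of all genes higher and 6.45% lower, and some lists were small. Of 13 melanocyte genes only GPNMB, a glycoprotein of melanosomes and lysosomes, was higher (7.69%). It was at 45.2, 25.7 and 23.4 against 57.0, 119 and 59.8 FPKM. Of 34 genes of dedifferentiated or invasive melanoma 0 were separated. Of 29 p53 targets 2 were lower (6.90%), and of 33 stress-response genes 1 was higher (3.03%) and 2 lower (6.06%). Among 18 NRF2 targets 1 was higher (5.56%), and among 23 sterol-synthesis genes 1 was higher (4.35%). The matrix and protease list had 3 of 27 higher (11.1%), and the snoRNA host list 3 of 25 lower (12%). Among 23 cancer-testis genes 1 was higher (4.35%) and 2 lower (8.70%). Of 10 tested ERV-derived genes, which are host genes made from old retroviral sequence, 2 were higher (20%). They were RTL8C at 33.8 to 37.1 against 40.1 to 51.9 FPKM and ERVK13-1 at 0.741 to 0.992 against 1.19 to 1.52 FPKM. Of the 13 tested neighbours within 500 kb of Z18 on chromosome 16, CYBA, PIEZO1 and MVD were higher (23.1%). CTU2 and TRAPPC2L were lower (15.4%). CYBA, a subunit of the phagocyte oxidase, was at 64.9 to 79.8 against 85.9 to 136 FPKM.

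**Figure D3:**
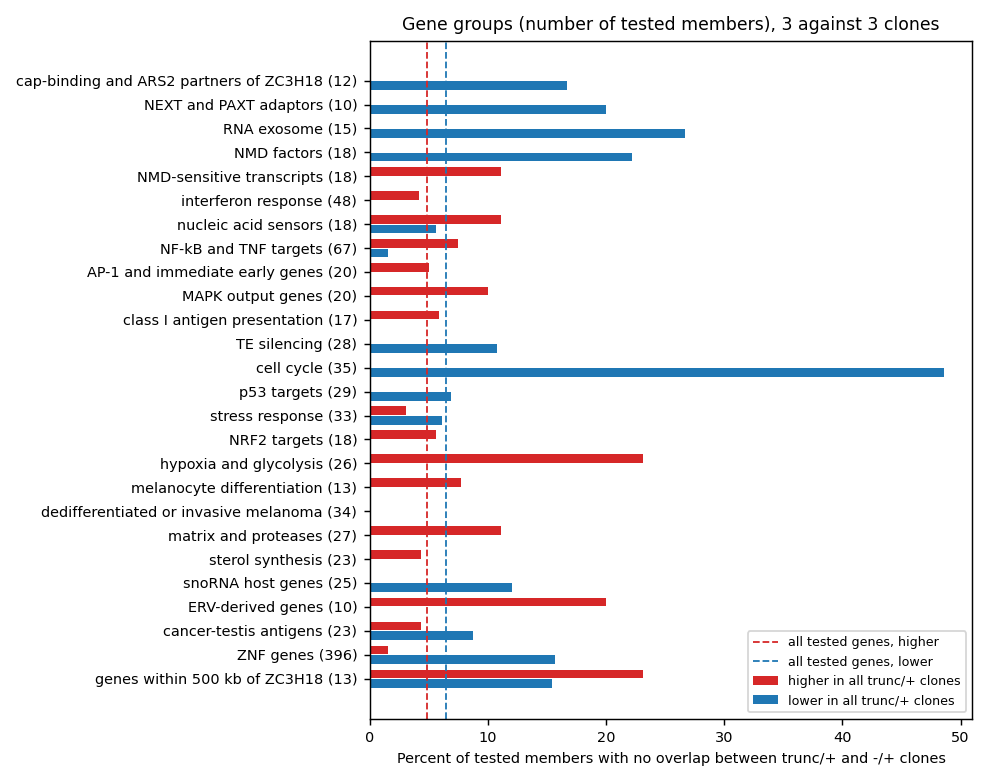
Share of the tested members of each gene list (number in brackets) whose 3 trunc/+ clones all lay above (red) or all below (blue) the 3 -/+ clones, with dashed lines for all tested genes at 4.79% and 6.45%. The longest bar is that of the cell-cycle list, at 48.6% lower, and no member of any list passed the adjusted test.

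The sums of TE classes did not separate the genotypes. Sense LTR reads summed to 4847, 5818 and 6185 CPM in the -/+ clones and to 6895, 7129 and 4745 CPM in the trunc/+ clones, with means of 5617 ± 691 and 6257 ± 1314 CPM (SD, n = 3 each). Trunc/+ clones 1 and 2 were the highest, and trunc/+ clone 3 was the lowest of the 6. The difference of log2 means was 0.14 (two-sided exact permutation p = 0.6; 0.1 is the smallest possible). LINEs were at 11746 ± 549 against 11363 ± 782 CPM (exact permutation p = 0.4, n = 3 each), SINEs at 15124 ± 880 against 15132 ± 579 CPM (exact permutation p = 1, n = 3 each) and DNA transposons at 3446 ± 116 against 3412 ± 175 CPM (exact permutation p = 1, n = 3 each). LTRs made up 13.4%, 16.6% and 16.9% of the reads of these 4 classes in -/+ and 19.2%, 18.5% and 13.9% in trunc/+ (exact permutation p = 0.5). None of the families of at least 100 CPM in every clone was separated, the ERV1 family included, at 2032, 3072 and 3078 CPM against 4055, 3759 and 2005 CPM. Over the 24 such tests of sums and regions, the smallest adjusted p was 1.

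**Figure D4:**
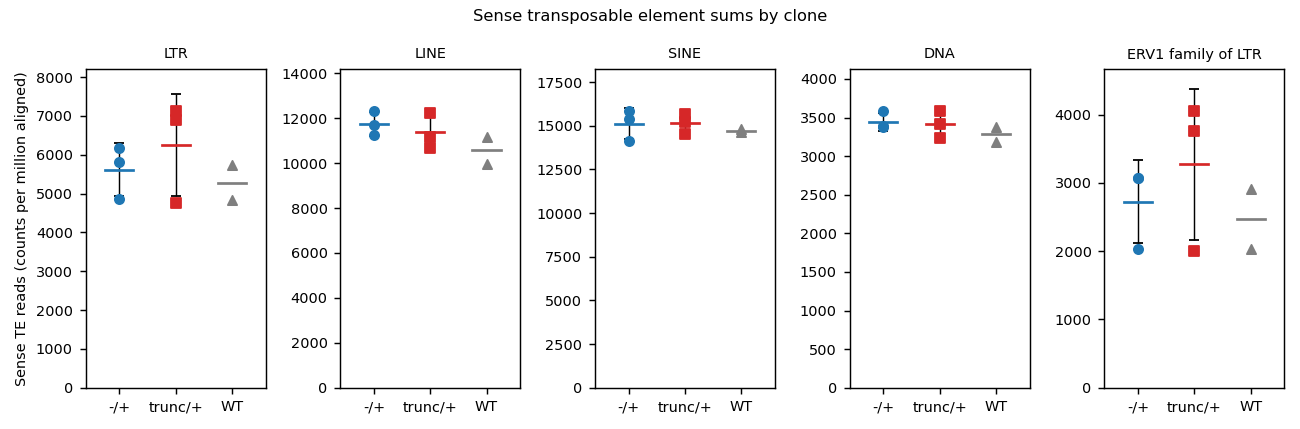
Sense reads of 4 TE classes and of the ERV1 family in CPM, 1 point per clone, with coloured lines for group means and black bars for the SD of 3 clones. The LTR and ERV1 values of trunc/+ clone 3, at 4745 and 2005 CPM, lie at the bottom of the 6 clones and those of trunc/+ clones 1 and 2 at the top.

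A HERVH block on chromosome 1 gave a variable share of LTR reads in both genotypes. HERVH is an ERV group driven by LTR7, and this block of 8 LTR pieces lies at chr1:68386004-68391992, where GENCODE v44 gives no gene. It gave 15.9, 780 and 622 CPM in the -/+ clones and 1636, 451 and 56.2 CPM in the trunc/+ clones, with WT at 18.2 and 567 CPM. That was 0.329% to 13.4% of LTR reads in -/+ and 1.18% to 23.7% in trunc/+. The low clones, -/+ clone 1, trunc/+ clone 3 and WT clone 1, were also the 3 clones highest on the first principal component of the genes. Without the block the LTR sums were 4831, 5039 and 5562 CPM against 5259, 6679 and 4689 CPM, which still overlapped. Another HERVH copy, inside an exon of the long non-coding gene LINC02582 on chromosome 18, gave 0.040, 25.6 and 106 CPM against 37.7, 184 and 0.221 CPM.

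At the level of single copies, 0 of 21634 tested TE loci (0%) passed (edgeR quasi-likelihood test, smallest adjusted p = 1.00), with 0 by DESeq2 too. At an unadjusted p under 0.05 there were 414 higher in trunc/+ (1.91%) and 393 lower (1.82%). The groups did not overlap for 884 loci higher (4.09%) and 1101 lower (5.09%). Among the 3220 LTR loci, 0 passed (0%), 83 were higher at an unadjusted p under 0.05 (2.58%) and 59 lower (1.83%), and 133 were separated upwards (4.13%) and 140 downwards (4.35%). Of 7708 LINE loci 275 were separated upwards (3.57%) and 457 downwards (5.93%), beside 4.09% and 5.09% of all TE loci. The median log2 difference of the LINE loci was -0.10, beside -0.04 over all TE loci. With TMM scaling the median over all TE loci was 0.01.

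2 ERV loci that the study describes were higher in every trunc/+ clone. The study picked both with these clones, so their direction is not independent evidence. The MER4-int window spans chr14:105032453-105039940 on the plus strand, between CDCA4 and GPR132, outside any gene of GENCODE v44, and holds 14 LTR pieces, 9 of them MER4-int, the internal part of an ERV1 retrovirus. Its summed counts were 58, 25 and 36 in the -/+ clones and 228, 608 and 174 in the trunc/+ clones, or 2.34, 1.33 and 1.51 CPM against 6.92, 21.8 and 6.17 CPM. The WT clones were at 0.975 and 1.21 CPM, below all -/+ clones, and trunc/+ clone 2 stood far above the rest. The difference of log2 means was 2.54 (two-sided exact permutation p = 0.1, the smallest 3 against 3 clones allow), and 1.96 without trunc/+ clone 2. Of the 14 pieces 7 were separated upwards, an untested LTR2C piece among them, and 0 downwards. The shares over LTR loci, 4.13% and 4.35%, are of tested loci only. Counts sufficed to test 9 of the 14. The pieces are neighbours in the same window that the study chose, so they are not separate evidence. The opening MER41A element had 3, 0 and 0 counts against 17.6, 24 and 8, with 0 and 11 in WT, where a locus read by several copies gets a fraction of a read. An AluSx in sense orientation inside the window, at chr14:105037515-105037812, had the smallest unadjusted p of the loci separated upwards, with 0, 1 and 0 counts against 37, 40 and 21. MER4-int copies elsewhere summed to 24.6, 20.7 and 35.7 CPM against 22.3, 40.1 and 27.3 CPM, which overlapped, and the subfamily as a whole did not pass (log2 difference 0.41 ± 0.27, adjusted p = 0.994).

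The HERVK3-int copy lies at chr16:35517050-35524053 on the plus strand and overlaps an exon of an unnamed long non-coding gene. It had 482, 303 and 170 counts in -/+ and 908, 1535 and 841 in trunc/+, or 19.4, 16.2 and 7.12 CPM against 27.5, 55.1 and 29.9 CPM, with WT at 9.63 and 11.1 CPM. All trunc/+ clones were above all -/+ and WT clones, and trunc/+ clone 2 was again the highest. The difference of log2 means was 1.45 (exact permutation p = 0.1, n = 3 each), between 1.01 and 1.73 with each clone left out. The LTR3B element at its 3′ end, whose sequence is shown above, had 57, 49.8 and 20 counts against 164, 153 and 124. The LTR3B subfamily went with it, at 2.94, 3.83 and 1.17 CPM against 5.38, 6.44 and 4.67 CPM, since this copy gave 90.3% of its reads in trunc/+. Other HERVK3-int copies summed to 30.1, 40.4 and 33.6 CPM against 29.8, 35.2 and 21.5 CPM.

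An LTR5B copy on chromosome 11 was on in 2 of the 3 trunc/+ clones. LTR5B is an older LTR of the HERVK group, and this copy, outside any gene of GENCODE v44, had 373 counts in trunc/+ clone 1 and 563 in clone 3, of which 341 and 540 were unique. It had 0 counts in trunc/+ clone 2 and in all -/+ and WT clones, which allows up to 0.160 CPM in the shallowest. With the main count filter, edgeR called it when trunc/+ clone 2, the trunc/+ clone with 0 counts, was left out and not with all clones. The copy was named for that call, so the call is no support for a genotype difference. With a weak filter it was called with all clones, though the groups overlapped.

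**Figure D5:**
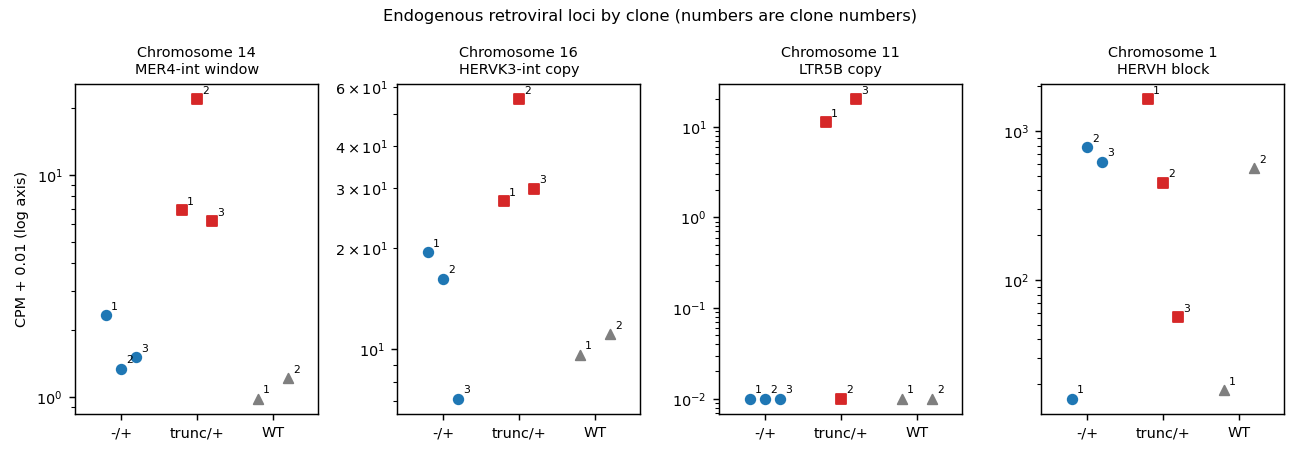
CPM + 0.01 on log axes at 4 ERV loci, 1 point per clone labelled with its clone number, blue circles for -/+, red squares for trunc/+ and grey triangles for WT. The MER4-int window and the HERVK3-int copy are higher in every trunc/+ clone, the LTR5B copy in clones 1 and 3 with the rest at 0, and the HERVH block differs widely inside each genotype.

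Other single copies were named by smallest unadjusted p. Their counts are raw, and every trunc/+ library was deeper than every -/+ library. Higher in trunc/+ were an MLT1F2 piece at chr7:130872324-130872950 in an exon of LINC-PINT, at 7, 10 and 23 counts against 161, 65.4 and 91.7, and an L1ME4a piece at chr3:4982468-4982625 in an intron of BHLHE40, at 1, 2 and 5 counts against 18, 52 and 59. An AluSq at chr17:70389529-70389818, outside genes, had 0 counts in every -/+ clone and 4, 44 and 20 in trunc/+. A HAL1 piece at chr18:26167896-26168084, inside PSMA8 on the opposite strand, had 0 counts in every -/+ clone and 20.8, 109 and 92.3 in trunc/+, but 4.05% of its counts were unique and WT clone 1 had 189. Lower in trunc/+ were an AluSz at chr17:40282905-40283192 in an exon of WIPF2, at 16, 13 and 11 counts against 1, 1 and 2, and an AluJb at chr19:57845732-57845983 in an exon of ZNF587B, at 58, 68 and 105 counts against 32, 20 and 47, whose host gene was lower too. An LTR87 piece on chromosome 5 had no unique counts, and a young L1PA2 on chromosome 9 had 26.4, 15.8 and 11.7 counts against 4.26, 0 and 0. A large-subunit rRNA repeat on chromosome 21 was lower by total counts, with 6.68% of them unique.

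By subfamily, 0 of 976 passed (0%) by edgeR (smallest adjusted p = 0.697), and 1, PABL_B-int, by DESeq2. At an unadjusted p under 0.05 there were 23 higher in trunc/+ (2.36%) and 18 lower (1.84%), 41 in all, against 21 without -/+ clone 2, and the groups did not overlap for 32 higher (3.28%) and 42 lower (4.3%). The internal ERV1 sequence PABL_B-int was at 4.43, 4.91 and 2.93 CPM in -/+ and at 1.33, 1.98 and 1.49 CPM in trunc/+, with WT at 4.33 and 3.57 CPM, a log2 difference of -1.35 ± 0.29 (SE). Of the LTRs with the smallest p on the higher side, MER54A was at 8.25 to 10.3 CPM against 13.3 to 18.2 CPM, MLT1E3 at 4.80 to 5.19 against 7.29 to 10.6 CPM, MER41C at 1.73 to 2.72 against 3.41 to 9.45 CPM and LTR5B at 12.2 to 14.4 against 15 to 33.2 CPM. The chromosome 11 LTR5B copy described above gave 11.30, 0 and 20.03 CPM of the LTR5B reads in trunc/+ and 0 in -/+. Without that copy, trunc/+ clone 3 fell below -/+ clone 1, so the LTR5B groups overlapped. A single copy gave 63.3% of the MER41C reads and 41.1% of the MLT1E3 reads in trunc/+. For PABL_B-int, too, a single copy gave 62.7% of the reads in trunc/+. On the lower side the LINE subfamily L1MCb was at 8.64 to 11.2 against 6.08 to 7.18 CPM. L1M3b was at 3.31 to 3.95 against 2.06 to 2.35 CPM and L1M4c at 246 to 324 against 228 to 245 CPM. Of the L1M4c reads in trunc/+ 65.3% came from a single copy, with 29.0% for L1M3b and 5.65% for L1MCb. The young, still mobile groups overlapped: L1HS was at 97.1, 118 and 104 CPM against 94.8, 125 and 59.3 CPM, AluY at 764 to 890 against 774 to 883 CPM, and SVA_F at 33.1 to 44.9 against 36.3 to 44.5 CPM. HERVH-int as a whole was at 84.0, 1030 and 1071 CPM against 1784, 1442 and 132 CPM, with a log2 difference of 0.62 ± 1.00.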

How the data were processed

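PolyA-selected, strand-specific libraries of 8 A375 clones (3 trunc/+, 3 -/+, 2 WT) were sequenced paired-end. Reads were mapped to hg38 and quantified by the authors with SQuIRE. The deposited gene tables hold FPKM, TPM and coverage signal, with columns as StringTie writes them, and the deposited TE tables hold estimated counts, in which reads of several copies are shared out, and unique counts per copy. The submitters' processing notes name cutadapt 4.6, and for these files the versions of SQuIRE and of tools run within it were not given in the sources used here. TE FPKM as deposited by the authors, in its own column, and the coverage column were not used. The bulk CRISPR samples were not analysed here.

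FPKM of rows with the same symbol were summed. Genes were tested as trunc/+ minus -/+ on log2(FPKM + 1) with limma 3.58.1 (R 4.3.3), and TE loci and subfamilies, as rounded sense counts with aligned fragments as library size and a count minimum of 10, with edgeR 4.0.16 (quasi-likelihood), all 8 clones sharing the spread; p-values were adjusted by Benjamini-Hochberg over all features, with a threshold of 0.05. FPKM are not counts, so no count test was run on genes, and fold changes on the log2(FPKM + 1) scale understate low genes. Class sums and single regions were compared by exact permutation on log2 CPM (log2(CPM + 0.01) for regions). DESeq2 1.42.0 was an alternative. Scripts were tested on simulated data. Whole lists are described by counts of members whose groups do not overlap. Named features were the 10 genes, 5 loci and 6 subfamilies per direction with the smallest unadjusted p among those without overlap, up to 4 per gene list, neighbours of Z18 within 500 kb and ERVs named by the study. The members and lists were chosen with earlier results of these data known. Clones are separate lines of 1 parent line, and p-values measure the spread between these lines. Intervals and limits from counts cover counting error only. Some sequences and genes are not reported here. No per-sample columns were left without a sample.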

Additional observations from a re-analysis of the deposited data

How the results depend on the processing

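For genes, 0 passed under every alternative run (pseudocount 0.1, quantile scaling, TPM, the 6 clones only, no filter, the replicate block, each clone left out). The count at an unadjusted p under 0.05 was 810 and ranged from 400 to 1130 with 1 clone left out, lowest without -/+ clone 2. All named genes whose groups did not overlap kept the sign of their difference in these fits. For TE loci, 0 passed in the main fit, with TMM or median-of-ratios scaling, with DESeq2 and with unique counts, and 0 to 1 passed with 1 clone left out. A weak filter that kept 204042 loci called 78 (53 higher, 25 lower), and the groups overlapped for 61 of them; the cause was not tested. Among the other 17 were large-subunit rRNA repeats on chromosome 21 and the HAL1 piece (edgeR adjusted p = 6.57e-16). 1 such repeat was higher in trunc/+ (log2 difference 1.00, edgeR adjusted p = 4.06e-21) and 1 was lower (-1.52, edgeR adjusted p = 1.42e-10). Only 5.75% and 6.68% of their counts were unique. Also among the 17 were the HERVK3-int copy (edgeR adjusted p = 0.00145) and the MLT1F2 piece (0.0313). From the chromosome 14 window came the AluSx (0.00663) and 2 MER4-int pieces (0.0223 and 0.0226). The smallest edgeR adjusted p of this fit, 3.98e-118, was at an rRNA repeat whose groups overlapped. None of these loci passed in the main fit, so the weak-filter calls are no support for them. The unadjusted count was 807, against 5021 with the weak filter and 398 with the 6 clones only, where 12488 loci were tested. For subfamilies, DESeq2 called 1 with aligned fragments and 1 with its own sizes, and the unadjusted count of 41 ranged from 21 to 58 with 1 clone left out. The SINE difference of 0.0017 became -0.0187 outside genes and ranged from -0.0456 to 0.0366 with 1 clone left out, and that of DNA transposons ranged from -0.0519 to 0.022. The rRNA repeat on chromosome 21 named above as lower by total counts was 0.19 by unique counts. Thinning counts to equal depth, chosen after seeing the data, gave 2.59 for the MER4-int window and 1.46 for the HERVK3-int copy and turned no class sum.

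Clones of both genotypes carry the numbers 1 to 3, which name no shared culture. Deviations of same-numbered clones correlated at -0.04, -0.13 and -0.55 over genes, and no clone correlated best with its own number, so the numbers do not pair them. With the replicate block 0 genes, 0 loci and 0 subfamilies passed, and 799 genes, 577 loci and 35 subfamilies had an unadjusted p under 0.05. With 3 clones a group, an exact test cannot go below 0.1, and the median SE of 0.83 log2 units per TE locus limits what single copies can show.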

Other observations

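3 gene lists (lysosomal, ribosome biogenesis and Notch) were chosen after values had been seen, so their counts are descriptions of the same clones. Of 39 genes of lysosomal enzymes and membrane proteins, 9 were higher in every trunc/+ clone (23.1%, beside 4.79% of all genes), 0 were lower and 34 had a positive difference, with a median of 0.30 and 0.21 to 0.38 with 1 clone left out. GRN, the progranulin gene, was at 69.6, 49.2 and 67.4 FPKM in -/+ and at 106, 91.5 and 103 FPKM in trunc/+, and the lysosomal channel gene MCOLN1 at 8.36 to 9.74 against 12.0 to 12.6 FPKM. Of 34 ribosome biogenesis genes, 6 were lower (17.6%, beside 6.45%), 0 higher and 33 had a negative difference, with a median of -0.27, or -0.15 without trunc/+ clone 1 and -0.41 without -/+ clone 1. NCL, the nucleolin gene, was at 269, 336 and 323 against 236, 242 and 255 FPKM, and POLR1A, the large subunit of RNA polymerase I, at 6.77 to 7.80 against 4.80 to 5.44 FPKM. Reads on rRNA repeats, which polyA selection should mostly remove, were at 6234, 6590 and 8881 CPM against 9210, 7434 and 8814 CPM and overlapped. Of 13 tested Notch genes, HES1 and HES4 were the 2 that were separated, both upwards (15.4%, beside 4.79%). The receptor gene NOTCH2 was at 19.7 to 26.6 against 17.5 to 25.1 FPKM.

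Whole chromosomes differed between clones inside each genotype. The median of a clone's genes relative to the mean of all 8 clones was, on chromosome 18 (182 genes), 0.28 log2 units in -/+ clone 3 and 0.41 in trunc/+ clone 2, against -0.10 and -0.20 in the other -/+ clones and -0.07 and -0.24 in the other trunc/+ clones. The 2 high clones were also the highest for the HERVH copy in LINC02582 on that chromosome. On chromosome 8 (441 genes) -/+ clone 2 stood at 0.25, with the other 5 clones between -0.06 and 0.01. On chromosome 13 (228 genes) the clones ran from -0.20 in trunc/+ clone 2 to 0.21 in -/+ clone 1. DNA copy number was not measured, and its part in these values was not tested.

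Several TE copies that were called only with the weak filter were read in some clones and at 0 in others of the same genotype. An L1PA5 on chromosome 10 had 70 and 407 counts in trunc/+ clones 1 and 2 and 0 in the other 6 clones, and an L1PA15 on chromosome 3 had 922 in trunc/+ clone 2 and 0 to 2 elsewhere. An LTR17 copy on chromosome 12 had 61.3 and 110 counts in -/+ clones 2 and 3 and 97.1 in WT clone 2, and 0 in the other 5 clones.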
